A study of Mus musculus with 24 samples.

Results

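The 9 genes described here, Mbp, Mag, Mobp, Mog, Cnp, Mal, Cldn11, Opalin and Myrf, encode proteins of myelin and of the oligodendrocytes that make it. Each was measured by the probe set that carried its symbol and no other on an Affymetrix array, and where a gene had several such probe sets the one with the highest mean was to be used. All 9 genes had exactly 1. They were 9 of the 11963 genes that remained after a filter on low values, and all 9 passed that filter. RNA came from the mediobasal hypothalamus, its lowest part around the arcuate and ventromedial nuclei, of mice whose background strain is given as C57BL76J. In the TSR group, for timed sleep restriction, gentle handling prevented sleep between ZT0 and ZT6 for 5 days in a row. After 2 days of free sleep the same schedule ran for 5 further days. ZT is zeitgeber time, read here as hours after lights on. Control mice (CON) were left undisturbed over the same period. Each condition was sampled at ZT1, ZT7, ZT13 and ZT19, with 3 arrays in each of the 8 groups and 3 mice at each time point per condition according to the study's description. For the sex and age of the mice and the day of tissue collection, the sources used here give no entry. P-values measure the spread between these arrays, part of which may be technical. The number of arrays limits the precision.

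Oligodendrocytes wrap axons of the central nervous system in a compact, lipid-rich membrane, and a small group of genes supplies most of its characteristic proteins. Transcripts of these genes are abundant in white matter, and fibre tracts such as the optic tract and the fornix run beside or through the hypothalamus. Mature oligodendrocytes arise from precursors through a program in which the transcription factors Sox10 and Myrf act on the myelin genes. In a piece of tissue, fewer cells of a type and less RNA per cell cannot be told apart, and neither can a different share of white matter in the dissection.

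In 4 of the 24 arrays the values lay in a narrower range than in the others, and most counts of called genes among the 9 depend on how these 4 are treated. They are TSR ZT1 replicate 3, TSR ZT13 replicate 2 and CON ZT19 replicates 2 and 3, called narrow arrays here because their interquartile range was under 2.5 log2 units (2.12 to 2.25, against 2.96 to 3.29 in the other 20). A narrow array correlated with the other arrays at a median Spearman coefficient of 0.836 to 0.881 over all probe sets, where the 20 others reached 0.976 to 0.986. The spread within groups was larger with them, with a median SD (standard deviation) of the residuals over genes of 0.361 log2 units in 24 arrays and 0.111 in 20. Each comparison was therefore made with all 24 arrays and again with the 20 others. In the latter, CON ZT19 has 1 array, whose spread is taken to equal that of the other groups, and TSR ZT1 and TSR ZT13 have 2 each. A gene is called when its limma p is under 0.05 after Benjamini-Hochberg adjustment over the 11963 genes. The label of the tissue was checked with 11 genes of the arcuate and ventromedial nuclei. Of these, 7 passed the filter, Npy and Cartpt among them, while Pomc, Nr5a1 and Nr0b1 were measured below it and Agrp had no probe set of its own. Among genes of cortex, thalamus and striatum 9 passed and 1 did not, and among those of the suprachiasmatic nucleus 8 passed and 2 did not. Passing the filter thus does not tell this tissue from its neighbours.

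The 9 genes differed in signal. Averaged over the 24 arrays, Mbp, which encodes myelin basic protein and holds the inner faces of the membrane together, lay at the 95.2th percentile of the genes tested. Cnp, which encodes a phosphodiesterase of the cytoplasmic channels in myelin, lay at the 94.8th percentile and Mal, which encodes a small membrane protein of myelin trafficking, at the 93.4th. Mobp, a further basic protein of compact myelin, lay at the 89.9th. Next came Cldn11, which encodes the claudin of myelin's tight junctions, at the 77.1th percentile, Mog, the glycoprotein of the outermost myelin surface, at the 74.5th, and Mag, the adhesion protein facing the axon, at the 72.7th. Myrf, the transcription factor of the group, lay at the 51.2th percentile, and Opalin, a transmembrane protein of myelin paranodal loops, at the 30.5th. Levels of different probe sets cannot be set against each other as amounts of RNA, so these percentiles describe signal.

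**Figure D1:**
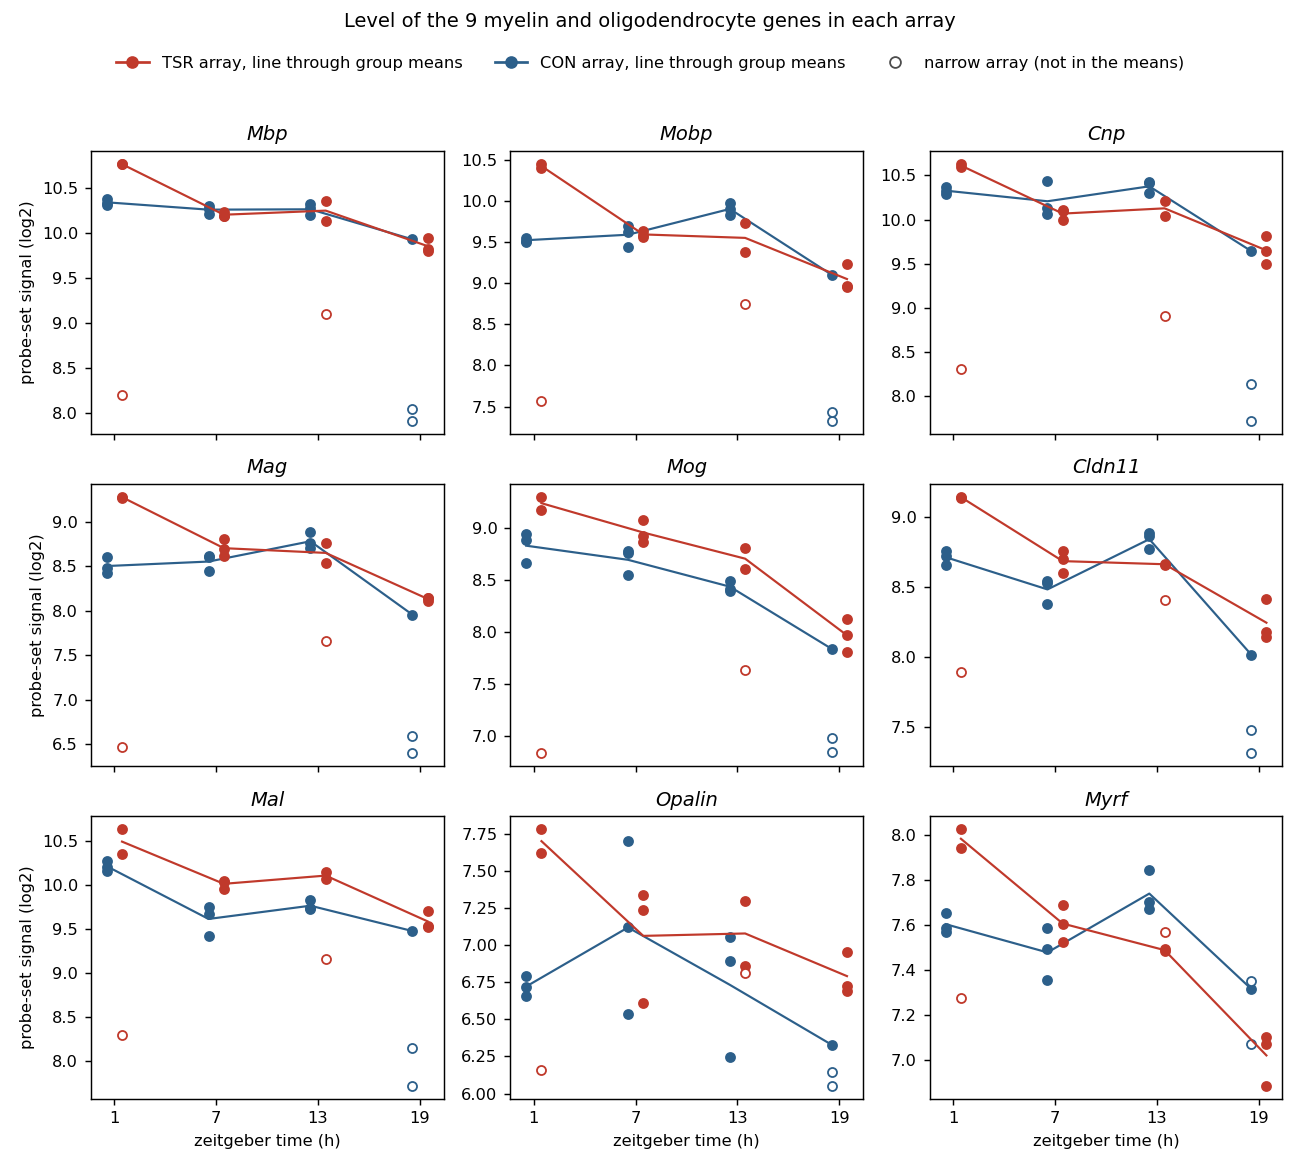
Log2 probe-set signal of the 9 genes by zeitgeber time in hours, with 1 point per array (TSR in red, CON in blue, 3 per group), narrow arrays as open circles and lines through the means of the other arrays. TSR at ZT1 has the highest mean for all 9 genes, and the open circle of that group lies far below its 2 filled points.

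The group of highest level in the 20 arrays was TSR at ZT1 for 9 of 9 genes. For 8 of the 9, both TSR ZT1 arrays lay above every other array of the 20, and Opalin was the exception, with a value of 7.70 in CON ZT7 replicate 2 against 7.78 and 7.62 in TSR at ZT1. The lowest group was CON at ZT19 for 6 genes and TSR at ZT19 for Mbp, Mobp and Myrf. For 6 of the 9 genes all 4 arrays of ZT19 lay below every other array of the 20. How many of all genes show these orders and arrangements was not counted. From the highest to the lowest group mean the genes spanned 0.91 (Mbp) to 1.40 log2 units (Mog), which is 1.88-fold to 2.65-fold. Between these ends the groups lay close together: ordered by level, the values of neighbouring groups overlapped in 2 of 7 neighbouring pairs for Mal and in 6 of 7 for Opalin, with the other genes between.

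At ZT1 the levels of Mobp in the TSR arrays were 10.40, 10.45 and, in the narrow array, 7.57, and in CON 9.51, 9.55 and 9.50. The narrow array was the lowest and the other TSR arrays were the highest of the 6. Mobp rose in TSR by 0.90 ± 0.10 (log2 difference ± SE, 2 and 3 arrays) in the 20 arrays, or 1.87-fold, with a limma adjusted p of 7.91e-06. Mag was at 9.28, 9.27 and, in the narrow array, 6.46 in TSR, and at 8.60, 8.42 and 8.48 in CON. The same pattern of a narrow array below and the other pair above all 3 controls held for it. It rose by 0.77 ± 0.08, or 1.71-fold (limma adjusted p = 8.80e-06). Opalin was at 7.78, 7.62 and, in the narrow array, 6.16, against 6.72, 6.65 and 6.79, and rose by 0.98 ± 0.26 (limma adjusted p = 0.0213). In the 20 arrays this standard error was the largest of the 9 genes at ZT1, and the SD of Opalin was 0.58 in CON at ZT7 and 0.43 in CON at ZT13.

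Mbp stood at 10.76, 10.76 and, in the narrow array, 8.20 in TSR at ZT1, and at 10.31, 10.38 and 10.32 in CON. It rose by 0.42 ± 0.07 in the 20 arrays, 1.34-fold (limma adjusted p = 3.83e-04). Cldn11 rose by 0.43 ± 0.08, Mog by 0.41 ± 0.10 and Myrf by 0.38 ± 0.09, with limma adjusted p between 0.00251 and 0.0166. Cnp and Mal did not pass, with differences of 0.28 ± 0.09 each and adjusted p of 0.0603 and 0.0544. For all 9 genes both TSR arrays lay above the 3 CON arrays, an arrangement found for 32.6% of all genes tested, since it asks little of 2 arrays against 3. In total 7 of the 9 genes were called, all higher in TSR, beside 6.95% of all genes called in that direction. The median difference of the 9 was 0.42, against 0.04 over all genes tested.

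With all 24 arrays none of the 9 genes was called at ZT1, where 0.0502% of all genes were called in either direction, and 0 of the 9 had an unadjusted p under 0.05. Their differences ran from -0.48 (Cnp) to 0.46 (Opalin) with a median of -0.16, against a median of -0.21 over all genes. With the narrow array in the mean the sign was turned for Mbp, Mag, Mobp, Mog, Cnp and Mal. When only TSR ZT1 replicate 3 was left out and the 3 other narrow arrays stayed in the fit, the differences equalled those of the 20 arrays and 0 genes were called (limma adjusted p of 1 for 8 genes and 0.91 for Opalin). The standard error of Mobp was then 0.37, against 0.10 in the 20 arrays. Among the 20 arrays the count was 4 when TSR ZT1 replicate 2 was also left out, which leaves that group with 1 array, and at most 9.

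In the narrow array of TSR at ZT1 most of these genes lay further below the rest of their group than other genes of like signal did. Mag differed from the mean of the other TSR ZT1 arrays by -2.81 log2 units, and the 1235 genes whose level lay within 0.25 log2 units of it differed by a median of -1.27. Mobp differed by -2.85, against -1.46 for 604 genes of like level. Over the 9 genes, 7 lay below the median of genes of like level in this array, and 6 lay below their 10th percentile. In the narrow CON ZT19 replicates 2 and 3, 4 of the 9 lay below that median in each and 0 below the 10th percentile. In TSR ZT13 replicate 2 the counts were 0 and 0. Genes of like level were matched on a level common to all groups, not on that of the group compared. With genes centred on their means and narrow arrays left out, the 9 averaged 0.62 in TSR at ZT1 and -0.50 in CON at ZT19. These counts therefore cannot tell a low narrow array from a high group. In the narrow arrays the 9 genes averaged 7.44 (TSR ZT1), 7.28 and 7.24 (CON ZT19) and 8.22 (TSR ZT13). The one TSR ZT1 array that was left out did not show the level of the other pair, and which of the 3 stands for the group was not tested.

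**Figure D2:**
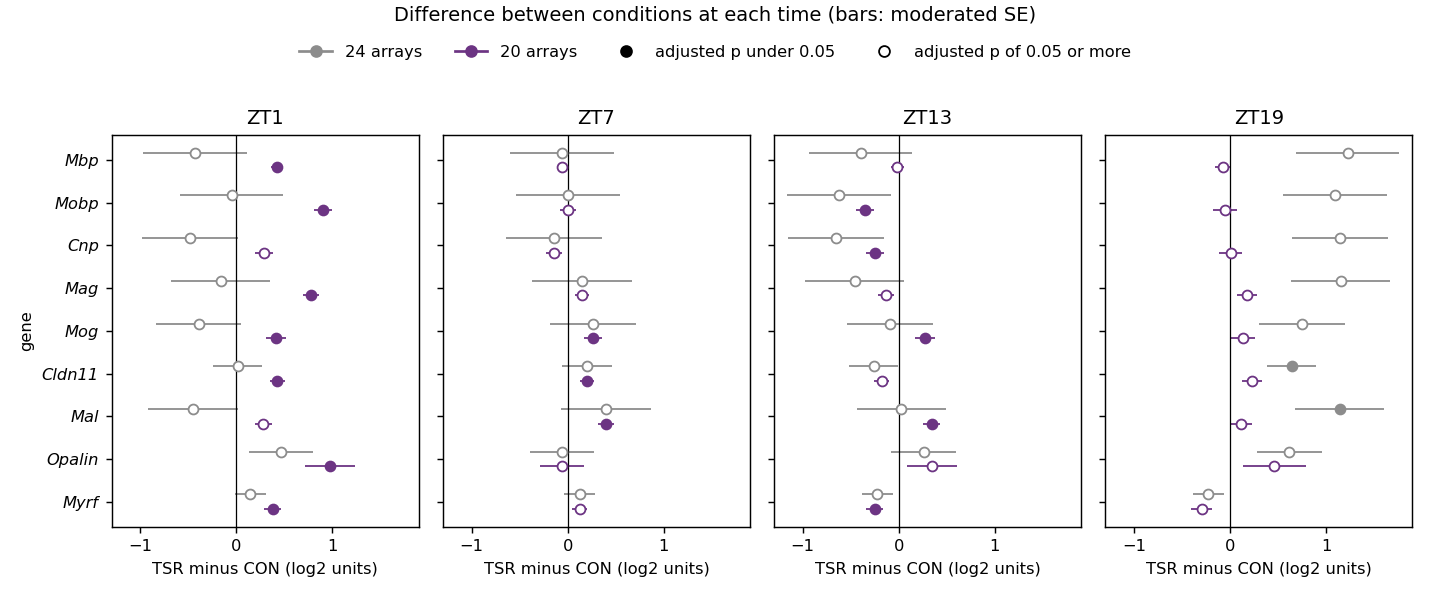
Difference between TSR and CON in log2 units for each gene (rows) at each time (panels), with the moderated standard error as bars, from 24 arrays (grey) and from 20 (purple), filled where the adjusted p is under 0.05. At ZT1 all 9 purple points lie right of 0 and 7 are filled, while the grey points lie on both sides of 0.

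Because the 9 genes were highest together in TSR at ZT1, the bases just before their start sites are shown for the 3 with the largest difference, chosen after their values were seen. A window of 250 bases before the start was taken from the RefSeq table of build GRCm38.p6 for 7 of the 9 genes. Myrf had no window there. Mbp was left out beforehand, whether or not it had one, and is not in the counts below. Capitals mark matches on either strand to CTGGCAC or CTGGTAC, a motif bound by Myrf, and to ACAAAG or ACAATG, a core bound by Sox factors such as Sox10, so that a match on the opposite strand shows as the reverse complement, CTTTGT for ACAAAG. The windows, written in the direction of transcription, are chr19:41077114-41077363 on the minus strand for Opalin, chr9:120149492-120149741 on the plus strand for Mobp and chr7:30914923-30915172 on the minus strand for Mag.
Opalin: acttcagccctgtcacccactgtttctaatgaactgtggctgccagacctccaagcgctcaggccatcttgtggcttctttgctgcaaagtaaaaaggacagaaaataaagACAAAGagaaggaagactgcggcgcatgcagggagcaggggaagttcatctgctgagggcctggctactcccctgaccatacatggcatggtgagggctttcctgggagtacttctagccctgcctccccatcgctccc
Mobp: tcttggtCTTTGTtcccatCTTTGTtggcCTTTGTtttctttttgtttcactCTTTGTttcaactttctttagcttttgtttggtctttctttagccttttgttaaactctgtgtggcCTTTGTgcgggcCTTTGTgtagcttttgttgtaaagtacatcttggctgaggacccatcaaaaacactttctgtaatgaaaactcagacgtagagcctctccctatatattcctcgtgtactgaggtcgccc
Mag: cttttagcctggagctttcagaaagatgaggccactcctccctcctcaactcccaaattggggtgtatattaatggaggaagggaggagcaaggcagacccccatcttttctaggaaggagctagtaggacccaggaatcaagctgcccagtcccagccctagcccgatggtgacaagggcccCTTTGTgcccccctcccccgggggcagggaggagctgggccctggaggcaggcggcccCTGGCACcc
The Myrf motif was found in 3 of the 7 windows, those of Mag, Mog and Cnp, and in 5.93% of the 32851 windows of this length in the table. In Mag it began 9 bases before the start site. The Sox core was found in 4 of the 7, once each in Mag, Cnp and Opalin and 6 times in Mobp, and in 25.2% of all windows. No matches overlapped each other in these windows. The members have 1 window each, while the 32851 windows count every start listed for a gene. Mag had 3 listed starts, of which that of the gene table was used, and the Cnp window precedes a start other than the gene table's. The windows and their background were thus not chosen alike. A match describes the letters and is no evidence of binding, and a window without one says nothing about either factor.

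Other genes of myelin and of mature oligodendrocytes were higher in the same TSR arrays. Of 15 tested genes for structural and adhesion proteins of myelin and its junctions, 10 rose in TSR at ZT1 in the 20 arrays and 0 fell, with a median difference of 0.36. Ermn, an oligodendrocyte cytoskeletal protein, rose by 0.69 ± 0.11 (limma adjusted p = 5.49e-04), Gjc3, a connexin, by 0.62 ± 0.09, Tmem88b by 0.61 ± 0.08 and Pmp22, a protein of compact myelin best known from peripheral nerve, by 0.55 ± 0.09. Of 9 tested genes of myelin lipid synthesis and metabolism, 8 rose and 0 fell, with a median of 0.53. Among these were Apod, a lipid carrier, at 0.92 ± 0.14, Enpp6, a choline phosphodiesterase, at 0.85 ± 0.12, Aspa, which releases acetate from N-acetylaspartate, at 0.69 ± 0.11 and Fa2h, which hydroxylates the fatty acids of galactolipids, at 0.57 ± 0.09. Of 12 other genes listed as enriched in mature oligodendrocytes, 10 rose and 0 fell, led by Anln at 1.07 ± 0.11 (limma adjusted p = 4.23e-06) and Bcas1 at 0.89 ± 0.17. Gjb6, which also stands in the astrocyte list below, was among the 10 and is counted in both lists. The share called higher over all genes was 6.95%, as above, and these lists were chosen with earlier results known.

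Transcription factors and precursor genes of the lineage were counted in the same way. Of 10 transcription factors of the lineage, 2 rose and 2 fell at ZT1 in the 20 arrays, with a median of -0.02. St18 rose by 0.45 ± 0.14 and Sox10 by 0.36 ± 0.11, while Olig2, which also acts in precursors and other progenitors, fell by 0.53 ± 0.11 (limma adjusted p = 0.00405). Tcf7l2, which is also a marker of thalamic neurons, fell by 0.46 ± 0.09. Of 11 precursor genes, 3 rose and 0 fell: Vcan by 0.42 ± 0.12, Sox6 by 0.34 ± 0.08 and Pdgfra, the receptor that defines these cells, by 0.31 ± 0.07. Their median was -0.06, against 0.04 over all genes, and 3.1% of all genes were called lower. No test of a difference between lists was made. With 24 arrays the medians of these 5 lists at ZT1 ran from -0.20 for structural proteins to 0.01 for lipid genes, and the smallest limma adjusted p among their genes was 0.746.

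**Figure D3:**
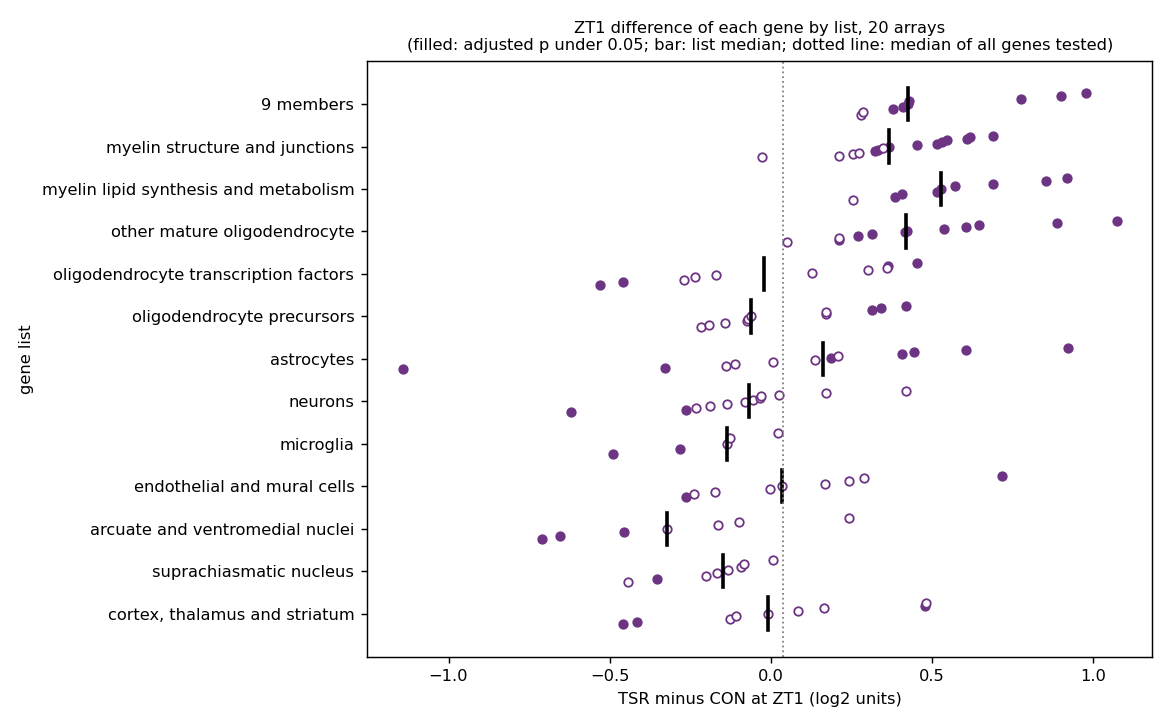
Difference between TSR and CON at ZT1 in the 20 arrays, in log2 units, for each tested gene (points) of 13 lists (rows), filled where the adjusted p is under 0.05, with a bar at each list's median and a dotted line at the median of all genes. The 9 members and the 3 lists of mature myelin genes have medians of 0.36 to 0.53, and the other 9 lists have medians of -0.32 to 0.16.

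Markers of other cells and regions also differed between these arrays. Of 7 tested genes of the arcuate and ventromedial nuclei, 0 rose and 3 fell in TSR at ZT1 in the 20 arrays, beside 3.1% of all genes called lower: Npy by 0.71 ± 0.18, Tac2 by 0.65 ± 0.14 and Kiss1 by 0.46 ± 0.14. The mean level of the 7 was 6.65 in both TSR ZT1 arrays and 6.85 to 7.08 in the CON arrays, so the groups did not overlap. Of 12 astrocyte genes, 5 rose and 2 fell, with Gfap at 0.92 ± 0.14, Gjb6, which also stands in the mature oligodendrocyte list, at 0.61 ± 0.13 and Fabp7 at -1.14 ± 0.11. Their mean was 10.03 to 10.05 in TSR and 9.91 to just under 10 in CON. Of 12 neuronal genes 0 rose and 2 fell, Nefl by 0.62 ± 0.08 and Snap25 by 0.26 ± 0.06, with means of 10.15 to 10.19 in TSR and 10.25 to 10.26 in CON. Of 5 microglial genes 0 rose and 2 fell, Cx3cr1 by 0.49 ± 0.10 and C1qa by 0.28 ± 0.09. Of 9 endothelial and mural genes Slco1a4 rose by 0.72 ± 0.17 and Flt1 fell by 0.26 ± 0.08. Of 8 genes of the suprachiasmatic nucleus Rgs16 fell by 0.35 ± 0.08. Of 9 genes of cortex, thalamus and striatum Lhx8 rose by 0.48 ± 0.13, and Foxp2 and Tcf7l2 fell by 0.41 ± 0.09 and 0.46 ± 0.09. Values on an array do not reach 0, so no marker can be called absent. The part of any of these differences in that of the myelin genes was not tested.

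At ZT7, the first sampled time after the hours of handling and a time with no narrow array in either condition, 3 of the 9 genes were higher in TSR in the 20 arrays and the other 6 did not pass. Mal stood at 9.96, 10.04 and 10.05 in TSR and at 9.67, 9.75 and 9.42 in CON, groups that did not overlap. Within the 20 arrays it rose by 0.40 ± 0.08 (limma adjusted p = 0.00101). Mog, at 8.92, 8.87 and 9.09 against 8.78, 8.55 and 8.76, also did not overlap and rose by 0.26 ± 0.09 (limma adjusted p = 0.0421). Cldn11, at 8.60, 8.70 and 8.76 against 8.55, 8.38 and 8.53, did not overlap either and rose by 0.20 ± 0.07 (limma adjusted p = 0.0462). The other 6 differences lay between -0.14 and 0.15. In all 3 of 9 genes were called higher, beside 12.9% of all genes, and 4 of 9 had all TSR values above all CON values, beside 17.3% of all genes. With 24 arrays the differences at ZT7 are the same and 0 of the 9 were called, beside 0.46% of all genes, with 0 at an unadjusted p under 0.05. Without any 1 of 4 single arrays the 20-array count dropped to 1: CON ZT7 replicate 2, TSR ZT7 replicate 3, TSR ZT19 replicate 3 or CON ZT1 replicate 3. Of the 9 genes of cortex, thalamus and striatum 7 rose at ZT7, with mean levels of 7.18 to 7.19 in TSR and 6.37 to 6.43 in CON. All 8 suprachiasmatic genes fell, with means of 7.20 to 7.25 and 7.95 to 7.97. Of 12 neuronal genes 7 rose and 1 fell, with Nefm at 1.35 ± 0.14 and Nefl at 0.81 ± 0.07, and their means were 10.17 to 10.22 in TSR and 9.80 to 9.97 in CON. Of 12 astrocyte genes 0 rose and 5 fell, with Gfap at -0.76 ± 0.13 and Sox9 at -0.62 ± 0.07. Of 9 endothelial and mural genes 5 rose and 0 fell, with means of 7.03 to 7.07 and 6.59 to 6.72. Of 7 arcuate and ventromedial genes 0 rose and 3 fell, and the 5 microglial genes had means of 7.18 to 7.33 and 7.07 to 7.10. These counts stand beside 12.9% of all genes called higher and 13.8% called lower. The part of these differences in those of Mal, Mog and Cldn11 was not tested.

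Other myelin genes at ZT7 were called mostly higher in the 20 arrays. Of the 15 structural genes 6 rose and 0 fell, with Pmp22 at 0.64 ± 0.08 and Ermn at 0.53 ± 0.10. Of the 9 lipid genes 3 rose and 0 fell, with Ugt8a, which makes galactosylceramide, at 0.53 ± 0.11 and Enpp6 at 0.32 ± 0.11. Of the 12 other mature oligodendrocyte genes 4 rose and 1 fell, of the 11 precursor genes 3 rose and 0 fell, and of the 10 transcription factors 1 rose and 1 fell. Over all genes 12.9% were called higher and 13.8% lower at this time, and no test of a list against that share was made.

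At ZT13, 1 of the 3 TSR arrays is narrow, and the 9 genes parted in direction in the 20 arrays. Mobp stood at 9.37, 9.73 and, in the narrow array, 8.75 in TSR and at 9.90, 9.83 and 9.97 in CON. All TSR values lay below all CON values with and without the narrow array, and in the 20 arrays Mobp fell by 0.35 ± 0.10 (limma adjusted p = 0.00593). Cnp fell by 0.25 ± 0.09 and Myrf by 0.25 ± 0.09, with adjusted p of 0.0373 and 0.0235. Mal was at 10.14, 10.07 and, in the narrow array, 9.16 in TSR, and at 9.74, 9.83 and 9.72 in CON. It rose by 0.34 ± 0.09 (limma adjusted p = 0.00453), and Mog rose by 0.27 ± 0.10 (adjusted p = 0.0403). The 2 called higher stand beside 24% of all genes called higher and the 3 called lower beside 21.9%, so these shares are close to the background. In the 20 arrays 2 of the 9 lay wholly above and 4 wholly below the controls, beside 31.9% and 30.5% of all genes. With 24 arrays 0 of the 9 were called, beside 0.418% of all genes, 0 had an unadjusted p under 0.05, and 4 lay wholly below the controls, beside 24.5%. The count in the 20 arrays was 2 without TSR ZT13 replicate 1 and also 2 without CON ZT13 replicate 3.

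Other myelin genes also went both ways at ZT13 in the 20 arrays. Of the 15 structural genes 7 rose and 3 fell, with Pmp22 at 0.98 ± 0.09 and Tspan2, a tetraspanin, at 0.88 ± 0.08 as the largest. Of the 9 lipid genes 4 rose and 0 fell, with Aspa at 1.01 ± 0.11 and Ugt8a at 0.97 ± 0.13. Of the 10 transcription factors 1 rose and 6 fell, with Sox10 at -0.61 ± 0.11 and Olig1 at -0.51 ± 0.11. Beside these counts, 24% of all genes were called higher and 21.9% lower. The 11 precursor genes had means of 8.08 to 8.11 in TSR and 7.85 to 7.95 in CON. Means of the 12 other mature oligodendrocyte genes, 8.40 to 8.54 and 8.21 to 8.43, overlapped. The mean of the 9 genes of cortex, thalamus and striatum was 7.34 to 7.44 in TSR and 6.96 to 7.04 in CON, and Slc17a7, a glutamate transporter of cortical and thalamic neurons, rose by 2.21 ± 0.12. The mean of the suprachiasmatic genes was 7.14 to 7.19 and 7.74 to 7.80, that of the arcuate and ventromedial genes 6.62 to 6.71 and 7.02 to 7.08, and that of the endothelial and mural genes 6.79 to 6.82 and 6.67 to 6.78. Means of neuronal and of astrocyte genes overlapped between the groups. Their part in the ZT13 differences of the 9 genes was not tested.

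At ZT19, 2 of the 3 control arrays are narrow, and the outcome turned on them. Mal stood at 9.53, 9.71 and 9.53 in TSR and at 9.48 in the control array of ordinary range, with 8.14 and 7.71 in the narrow ones. Cldn11 stood at 8.41, 8.15 and 8.18 in TSR and at 8.02, with 7.32 and 7.48 in the narrow arrays. With 24 arrays these 2 genes were called higher in TSR, Mal by 1.14 and Cldn11 by 0.64 with limma adjusted p of 0.0446 and 0.0439, while quantile normalization of the 24 arrays changed these differences to 0.33 and -0.01. At this time 44.2% of all genes were called higher in TSR and the median gene differed by 0.59, so a call here sets a gene apart little from the others. In the 24 arrays 4 of the 9 lay wholly above the controls, beside 44.6% of all genes. With 20 arrays the differences ran from -0.30 (Myrf) to 0.46 (Opalin). None was called, beside 24.6% of all genes called in either direction, and 2 of the 9 had an unadjusted p under 0.05. The 24-array count was 8 without TSR ZT1 replicate 3, 6 without CON ZT19 replicate 1, 5 without TSR ZT1 replicate 1, TSR ZT1 replicate 2 or TSR ZT13 replicate 2, 2 without TSR ZT13 replicate 1 or 3, and 0 without any other single array. Among the 20 arrays, 4 of the 9 lay wholly above and 1 wholly below the single control array, beside 49.1% and 30.5% of all genes. The mean of the genes of cortex, thalamus and striatum was 7.14 to 7.16 in TSR and 6.32 in that control array. For endothelial and mural genes it was 6.83 to 6.93 and 6.53, and for arcuate and ventromedial genes 6.65 to 6.74 and 7.13. Neuronal genes had 9.99 to 10.05 and 9.96, and microglial genes overlapped. Their part in the ZT19 differences of the 9 genes was not tested.

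Averaged over the 4 times, 6 of the 9 genes were higher in TSR in the 20 arrays, beside 33.5% of all genes called higher. Opalin was higher by 0.43 ± 0.14, Mal by 0.28 ± 0.05, Mog by 0.27 ± 0.05, Mag by 0.24 ± 0.04, Cldn11 by 0.17 ± 0.04 and Mobp by 0.13 ± 0.05, with limma adjusted p of 5.81e-05 to 0.0423. Mbp at 0.07 ± 0.03, Cnp at -0.02 ± 0.05 and Myrf at -0.01 ± 0.05 did not pass. In all 24 arrays 0 of the 9 were called, beside 2.4% of all genes, and 0 had an unadjusted p under 0.05. For Mobp and Mag most of the average came from ZT1, since their differences at ZT7, ZT13 and ZT19 were 0.00, -0.35 and -0.05 and 0.15, -0.13 and 0.18.

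Whether the difference between conditions depended on the time was tested by an F test of limma with 3 degrees of freedom. Within the 20 arrays 6 of the 9 genes passed, beside 29.7% of all genes. Mobp had the smallest adjusted p (1.49e-05), followed by Mag (1.39e-04), Mbp (0.00127), Myrf (0.00155), Cldn11 (0.00427) and Cnp (0.0210). For each of these 6 the difference was larger at ZT1 than at the other 3 times. Mal, Mog and Opalin did not pass (adjusted p of 0.359, 0.532 and 0.129). Mal and Mog were higher in TSR at ZT1, ZT7, ZT13 and ZT19 alike, by 0.11 to 0.40 and by 0.13 to 0.41, though not every one of these differences was called. When all 24 were used, 0 of the 9 passed, beside 0.318% of all genes, with 0 at an unadjusted p under 0.05. Leaving out single arrays gave 5 to 7 genes in the 20 arrays.

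In TSR, mean levels of the 9 genes in the 20 arrays were highest at ZT1 and lowest at ZT19. With the narrow arrays in the means, ZT7 was the highest time in TSR for Mbp, Mag, Mobp, Mog, Cnp and Mal. In the 20 arrays 8 of the 9 genes differed among the 4 times by the F test (limma adjusted p of 8.71e-08 to 7.13e-06), beside 24.2% of all genes, and Opalin did not (0.0686). The step from ZT7 to ZT19 rests on 3 arrays in each group with none narrow, and is a contrast added after the data were seen. Mog stood at 8.92, 8.87 and 9.09 at ZT7 and at 7.81, 8.13 and 7.97 at ZT19, and fell by 0.99 ± 0.09 (limma adjusted p = 6.58e-07). Myrf, at 7.69, 7.53 and 7.60 and then 7.07, 7.10 and 6.88, fell by 0.59 ± 0.08, and Mag by 0.57 ± 0.08. In all 8 of 9 genes fell, beside 6.01% of all genes. For 8 of 9 the ZT19 arrays lay wholly below those of ZT7, an arrangement whose share over all genes was not counted. Opalin, at -0.27 ± 0.23, did not pass. Marker lists moved over the same step. The mean of the 8 suprachiasmatic genes was 7.20 to 7.25 at ZT7 and 7.77 to 7.88 at ZT19, and 5 rose and 2 fell. The mean of the 12 neuronal genes was 10.17 to 10.22 and then 9.99 to 10.05, with 1 higher and 6 lower, and that of the 9 endothelial and mural genes 7.03 to 7.07 and then 6.83 to 6.93, with 0 higher and 2 lower. These stand beside 10.1% of all genes called higher and the 6.01% called lower, and their part in the step of the myelin genes was not tested. The count was 8 in each of the 20 fits of the 20 arrays that left out a further array. With 24 arrays the differences were the same and 0 of the 9 were called, beside 0.217% of all genes, with 2 at an unadjusted p under 0.05.

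The steps between consecutive times, in TSR and in CON, were also added after the data were seen, and those in TSR use groups with a narrow array. Among the 20 arrays 7 genes fell from ZT1 to ZT7, beside 9.44% of all genes, with Mobp at -0.83 ± 0.10 the largest, and Mog and Opalin did not pass. From ZT7 to ZT13 0 of the 9 passed, with differences of -0.25 to 0.09, beside 3.49% of all genes in either direction, and 1 had an unadjusted p under 0.05. From ZT13 to ZT19 8 genes fell, beside 1.13% of all genes, but only 2 when TSR ZT13 replicate 3 was left out. From ZT19 to ZT1 all 9 rose, by 0.90 (Cldn11) to 1.37 (Mobp) or 1.86-fold to 2.59-fold, beside 9.96% of all genes. With 24 arrays 0 of the 9 were called in any of these 4 steps, beside 0.00836% of all genes from ZT1 to ZT7 and from ZT7 to ZT13, 0.0669% from ZT13 to ZT19 and 0.117% from ZT19 to ZT1, and at most 1 gene had an unadjusted p under 0.05 in any of them.

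In CON the mean of the 9 genes moved little from ZT1 to ZT13 in the 20 arrays, while single genes moved in both directions, and it was lowest at ZT19. Within the 20 arrays 8 of the 9 genes differed among times (limma adjusted p of 4.33e-05 to 0.0160), beside 29.8% of all genes, and Opalin did not (0.207). With 24 arrays 0 passed, beside 0.301% of all genes, although 8 had an unadjusted p under 0.05. Between ZT1 and ZT13, groups of 3 arrays with none narrow compared in a contrast added after the data were seen, Mobp rose from 9.51, 9.55 and 9.50 to 9.90, 9.83 and 9.97, by 0.38 ± 0.09 (limma adjusted p = 0.00332). Mag rose by 0.28 ± 0.08, while Mog fell by 0.40 ± 0.09 and Mal by 0.45 ± 0.08. These 2 higher and 2 lower genes stand beside 12.8% and 11.9% of all genes. In all 24 arrays 0 of the 9 passed, beside 0.0752% of all genes, and 0 had an unadjusted p under 0.05.

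From ZT1 to ZT7 in CON 2 genes fell in the 20 arrays, Mal by 0.60 ± 0.08 and Cldn11 by 0.23 ± 0.07, beside 8.91% of all genes. The count was 3 without CON ZT7 replicate 3 and 1 without any 1 of 7 arrays: TSR ZT1 replicates 1 and 2, TSR ZT7 replicate 2, CON ZT1 replicates 1 to 3 and CON ZT13 replicate 3. From ZT7 to ZT13 4 rose, Cldn11 by 0.36 ± 0.07, Mobp by 0.31 ± 0.09, Myrf by 0.26 ± 0.08 and Mag by 0.23 ± 0.08, beside 10.3% of all genes, and 1 gene did so when CON ZT13 replicate 3 was left out. With 24 arrays 0 were called in either step, beside 0.1% and 0.0585% of all genes, with 0 at an unadjusted p under 0.05. Levels at ZT19 were lower than at ZT13 for 7 genes in the 20 arrays, beside 4.2% of all genes, and for 8 in the 24, beside 32.5%. In the array of ordinary range Mobp stood at 9.10, Mag at 7.96 and Mog at 7.84, below all 9 arrays of the other CON times for each. In the 20 arrays the mean of the 9 genes of cortex, thalamus and striatum was 6.86 to 6.95 at ZT1, 6.37 to 6.43 at ZT7, 6.96 to 7.04 at ZT13 and 6.32 at ZT19 in CON, and 6 of these 9 genes fell from ZT13 to ZT19. The part of this difference in that of the myelin genes was not tested. From ZT19 to ZT1 7 genes rose in either set of arrays, beside 5.87% of all genes in the 20 and 28.3% in the 24. These steps rest in the 20 arrays on 1 control array at ZT19. With 24 arrays both counts were 0 when any single array of TSR ZT7, TSR ZT19, CON ZT1, CON ZT7 or CON ZT13 was left out, or either narrow array of CON ZT19.

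**Figure D4:**
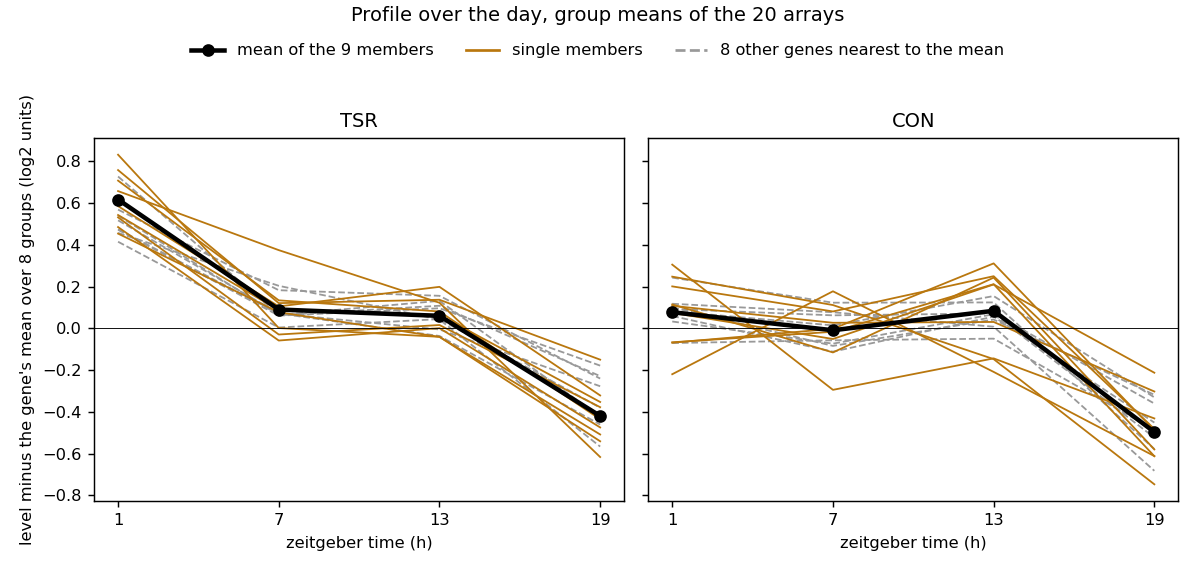
Group means of the 20 arrays over zeitgeber time in hours, each gene centred on its mean over the 8 groups (log2 units), for TSR (left) and CON (right): the 9 genes (orange), their mean (black) and the 8 other genes nearest to that mean (grey, dashed). The mean runs from 0.62 at ZT1 to -0.42 at ZT19 in TSR, and in CON stays between -0.01 and 0.08 from ZT1 to ZT13 before -0.50 at ZT19.

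The 9 genes followed a shared course with differences among themselves. Centred on each gene's mean over the 8 groups, their average was 0.62, 0.09, 0.06 and -0.42 at ZT1, ZT7, ZT13 and ZT19 in TSR and 0.08, -0.01, 0.08 and -0.50 in CON. Cldn11 and Mag lay nearest to the average of the other 8, with root-mean-square distances over the 8 groups of 0.093 and 0.098 log2 units. Opalin and Mog lay farthest, at 0.226 and 0.212. As given above, Mog and Mal fell in CON from ZT1 to ZT13, while Mobp and Mag rose over the same interval.

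Among all other genes tested, those nearest to the average course of the 9 over the 8 group means of the 20 arrays were Tmem63a, an ion channel gene, at a root-mean-square distance of 0.056 log2 units, Pllp, a myelin proteolipid, at 0.096, Ttyh2 at 0.102 and Hapln2, a link protein of the nodes of Ranvier, at 0.103. Next were S100b, a calcium-binding protein of glia, at 0.103, Pde8a at 0.109, Plekhh1 at 0.109 and Cyp27a1, a sterol hydroxylase, at 0.109. The median over all genes tested was 0.331. Pllp, Hapln2 and Plekhh1 also stand in the lists of myelin and oligodendrocyte genes used above. The groups share arrays with the tests above, so this nearness is a description. In TSR at ZT1 the centred level of Tmem63a was 0.73, against 0.03 in CON.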

How the data were processed

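RNA of 24 mediobasal hypothalamus samples was extracted with Trizol, labelled with a GeneChip WT Terminal Labeling Kit and hybridised to Affymetrix arrays, per the labels' protocols. The deposited values are log2 signals of 35556 probe sets per array, made with Affymetrix Expression Console per the submitters' processing notes. For the summarization method and genome build, nothing is stated in the sources used here. Some deposited cells had lost their decimal point: 2445 of 853344 (0.287%) were restored from the other arrays of the row, 111 were set to missing and 9 were missing as deposited. None of the restored cells belongs to the 9 genes. No further normalization was applied.

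The platform annotation gave 1 symbol to 21789 probe sets, several to 1621 and none to 12146. Of those with 1 symbol, 21698 matched the RefSeq gene table of GRCm38.p6. For each of 19938 genes the probe set of highest mean was kept, and the 11963 genes with a mean over all arrays above the 40th percentile (5.84 log2 units) were tested. limma 3.58.1 in R 4.3.3 was fitted to 8 group means with a mean-variance trend, with Benjamini-Hochberg adjustment over all genes tested, and was tested on simulated data. There 100 genes were raised by 0.5 and 100 by 1 log2 unit in TSR at ZT1. The fit of 24 arrays called 4 and 44 of them, and that of 20 called 66 and 99, with 3 and 9 false calls. The simulated noise of a gene had the same spread in every array, unlike the narrow arrays. The fit was repeated without the 4 arrays of interquartile range under 2.5. Groups were taken from the labels.

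The members and gene lists were chosen with earlier results of these data known. Named in the text are all 9 members, up to 4 genes per other list with the largest difference at ZT1 in the 20 arrays (2 at other times), and the 8 genes nearest to the members' mean course. The alternatives were quantile normalization, no filter, the mean of a gene's probe sets, no trend, array weights, a replicate block, only the groups compared, restored cells left blank, and leaving out each array.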

Additional observations from a re-analysis of the deposited data

Results flagged for a closer look

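For 6 of the 9 genes the difference between TSR and CON was not the same at the 4 times, by an interaction test in the 20 arrays (limma F test, adjusted over all genes tested). The adjusted p was 1.49e-05 for Mobp, 0.000139 for Mag, 0.00127 for Mbp, 0.00155 for Myrf, 0.00427 for Cldn11 and 0.021 for Cnp. The difference at ZT1 was 0.90, 0.77, 0.42, 0.38, 0.43 and 0.28 log2 units in that order, and at ZT13 it was -0.35, -0.13, -0.01, -0.25, -0.18 and -0.25. Over all genes 29.7% passed this test. With 24 arrays 0 of the 9 passed, and 0 had an unadjusted p under 0.05.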

How the results depend on the processing

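Most counts of genes called out of the 9 differed between the 24 arrays and the 20, and from ZT19 to ZT1 in CON the count was 7 in both. For TSR against CON at ZT1, ZT7, ZT13, ZT19 and on average they were 0, 0, 0, 2 and 0 in the 24 arrays and 7, 3, 5, 0 and 6 in the 20. They were 7, 1, 5, 1 and 5 in the 20 arrays after quantile normalization, and 9, 1, 5, 8 and 8 with array weights. Of all 11963 genes, quantile normalization of the 20 called 1501, 3849, 5938, 3292 and 7028 in either direction. Array weights called 3131, 3754, 6014, 10020 and 9317, so 8 of the 9 at ZT19 or on average sets these genes apart little. For times in CON, times in TSR and condition by time the counts out of the 9 were 0, 0 and 0 in the 24 arrays, 8, 8 and 6 in the 20, 8, 8 and 6 with quantile normalization of the 20, and 9, 9 and 9 with array weights. How many of all genes passed the time tests and steps under these alternatives was not counted. The steps ZT1 to ZT7, ZT7 to ZT13 and ZT1 to ZT13 in CON gave 2, 4 and 4 in the 20 arrays, 1, 4 and 4 with their quantile normalization and 1, 5 and 4 with array weights. From ZT13 to ZT19 in CON quantile normalization gave 5 in either set. The steps ZT1 to ZT7, ZT13 to ZT19, ZT19 to ZT1 and ZT7 to ZT19 in TSR gave 7, 8, 9 and 8 in the 20 arrays with or without quantile normalization and 9, 8, 9 and 8 with array weights, which also gave 1 from ZT7 to ZT13. With 24 arrays quantile normalization gave 1 at ZT19 (Myrf, lower) and 5 for times in CON, a fit of only the groups compared gave 1 at ZT7, 0 at ZT19 and 9 for times in CON, and no filter gave 0 from ZT19 to ZT1 in CON. Over all genes, quantile normalization of the 24 arrays called 6148 at ZT19, and the fit of only the groups compared called 2113 at ZT7. The cause of these changes was not tested.

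Differences changed sign as follows. At ZT1 those of Mbp, Mag, Mobp, Mog, Cnp and Mal became 0.42, 0.77, 0.90, 0.41, 0.28 and 0.28 in the 20 arrays, 0.36, 0.72, 0.85, 0.35, 0.20 and 0.21 after their quantile normalization and 0.42, 0.78, 0.90, 0.40, 0.28 and 0.30 with array weights. At ZT13 Mog became 0.27, 0.24 and 0.23 under these settings, and Mbp 0.0033 with quantile normalization of the 20. At ZT19 Mbp and Mobp became -0.075 and -0.052 in the 20 arrays, and Mbp, Mobp and Cnp became -0.15, -0.18 and -0.090 after quantile normalization of these. Array weights gave Mobp -0.020 at ZT7 and averages of 0.36 for Cnp and 0.013 for Myrf. Quantile normalization of the 24 arrays gave Mobp 0.25 at ZT1, Mog 0.18, Cldn11 0.056 and Myrf 0.043 at ZT13, and Cldn11 -0.015 at ZT19.

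Leaving out 1 array at a time gave counts of 0 to 0, 0 to 0, 0 to 0, 0 to 8 and 0 to 1 for the 4 times and the average in the 24 arrays, and 4 to 9, 1 to 3, 2 to 6, 0 to 1 and 5 to 7 in the 20. For times in CON, times in TSR and condition by time the ranges were 0 to 9, 0 to 1 and 0 to 4, and in the 20 arrays 7 to 9, 8 to 9 and 5 to 7. Over both sets, ZT1 differences ranged from -0.86 to 0.44 for Mbp, -0.63 to 0.82 for Mag, -0.54 to 0.93 for Mobp, -0.83 to 0.47 for Mog, -0.88 to 0.31 for Cnp, -0.89 to 0.42 for Mal and -0.20 to 0.45 for Cldn11. At ZT7 the range was -0.069 to 0.057 for Mobp and -0.35 to 0.23 for Opalin. At ZT13 it was -0.64 to 0.10 for Mbp, -0.32 to 0.37 for Mog and -0.15 to 0.38 for Mal. At ZT19 it was -0.12 to 1.87 for Mbp, -0.15 to 1.67 for Mobp and -0.073 to 1.72 for Cnp. Averages ranged from -0.022 to 0.30 for Mbp, -0.015 to 0.35 for Mobp, -0.13 to 0.16 for Cnp and -0.079 to 0.014 for Myrf.

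A replicate block of the labels' numbers changed no count of members called in the 24 arrays (0, 0, 0 and 2 at the 4 times). The deviations of same-numbered TSR and CON arrays from their group means correlated above 0.1 in 5 of 12 pairs. The narrow arrays enter these group means, so the correlations do not settle whether the numbers pair the samples. The mean of probe sets, no trend and blank decimals left each count within 1.5 times that of the 24 arrays.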
